A study of Mus musculus with 38 samples.

Results

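Assays A10, A11 and A12 are 3 of the 21 target assays of a qRT-PCR panel that was read in the hearts of 38 mice. They were chosen by their measured values, and are 3 of the 5 assays that met the following criterion. The difference between Myriocin-treated and untreated ischemic hearts was more than 2 log2 units higher at 96 h than at 24 h after surgery, on the normalised and on the raw scale. On the normalised scale, this late difference went with low values in the untreated ischemic hearts at 96 h in all 3 assays. They were wholly below sham hearts, as in 52.4% of the 21 assays. On the raw scale they overlapped sham hearts in A10 and A11 and were wholly below them in A12 (19.0% of the assays). The larger part of the A10 change then lay in the treated hearts. The mean of the treated hearts at 96 h differed from that of sham hearts by 0.64 log2 units in A10, 0.04 in A11 and -1.04 in A12. With a reference averaged over the target assays, untreated hearts at 96 h differed from sham hearts by -0.40 in A10, -1.19 in A11 and -2.56 in A12. This average holds only the assays that had a Ct in a sample, so empty assays shift it as well. At 24 h the groups overlapped in each of the 3 assays on the normalised scale. The plate codes are not paired with gene names in any table used here, so the assays carry no gene name and no sequence of their own is shown.

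The adult heart draws most of its energy from fatty acids, which are taken up, carried into mitochondria and oxidised there. The PPAR nuclear receptors and their co-activator PGC-1α switch on many genes of this pathway, and ischemic and failing myocardium is known for a lower expression of it. Myriocin inhibits serine palmitoyl transferase, the first enzyme of sphingolipid synthesis, and so limits the formation of ceramide. The panel covered these receptors, fatty acid transporters and oxidation enzymes, perilipins, which coat lipid droplets, and the cardiac myosin heavy chains. Which of these transcripts A10, A11 and A12 measure is unknown here, so the cardiac identity of the tissue could not be checked against marker transcripts either.

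Male C57BL/6N mice of 8 to 10 weeks had the left anterior descending coronary artery (LAD) ligated for 30 min and were then reperfused for 24 or 96 h. MLAD mice received 20 μL of solid lipid nanocarriers (SLN) loaded with Myriocin at the start of reperfusion, diluted from a 1 mM stock. The methods name empty SLN for a control group, taken here to be the LAD mice. Sham mice had the same surgery without ligation. RNA came from the at-risk area of the left ventricle in LAD and MLAD mice and from left ventricle in sham mice, so occlusion and the sampled area cannot be told apart. Each time point had 5 sham, 7 LAD and 7 MLAD mice. These are separate animals, and the 24 h mice are not the 96 h mice.

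The authors deposited threshold cycles (Ct). This is the PCR cycle in which fluorescence first exceeds a set level, and abundant transcripts reach it early. Every target Ct is followed by the Ct of a reference assay, B10. Relative expression is B10 Ct minus target Ct of the same listing, which is a log2 scale where amplification is perfect, and its zero differs between assays. The only endogenous control named in the methods is RPLI, and B10 is taken to be this control. Its primers are shown because every normalised value below rests on the reference:
RPLI forward primer: ctcggccgttctcctgta
RPLI reverse primer: gtggaagtggggcttcag
A10 had a Ct in 29 of the 38 mice, A11 in 32 and A12 in 29, which left 24 of 114 combinations empty. Target Ct of the 3 assays lay between 14.9 and 33.6, below the limit of 35 cycles in every mouse. How many wells stand behind a Ct is not given in the sources used here, and the technical error is unknown. A10 and A12 shared 13 reference readings to the last decimal within a group, and 5 of these stood under different sample numbers in the 2 assays. A11 and A12 shared 12, of which 2 had different numbers, and A10 and A11 shared 6, all with equal numbers. The assays therefore share reference error, and a sample number may not mark the same mouse in every assay.

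The values that chose the assays are a description and were not tested. MLAD minus LAD at 96 h less the same difference at 24 h was 3.07 log2 units in A12, 2.72 in A11 and 2.33 in A10, and 4.20, 3.66 and 2.76 in the same order on raw Ct, with no reference. Of the 21 assays, 6 (28.6%) were over 2 log2 units on the normalised scale, and 5 (23.8%) on both scales. The other 3 were A02 at 2.76, B08 at 2.06, the last above the threshold, and B07 at 4.23, which had 1.62 on raw Ct. A02 and B08 were over the threshold on raw Ct as well, at 3.13 and 3.39, and are not among the assays described here. B09 was the next below the threshold, at 1.78. The median of all 21 assays was 1.42 on the normalised scale and 2.60 on raw Ct. A10 was thus 0.91 above the median of the panel on the first scale and 0.16 on the second, whereas A12 was 1.65 and 1.61 above it. With a reference averaged over the target assays, A10 was at 0.77 and was itself the median of the panel, whereas A11 was at 1.91 and A12 at 2.42.

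**Figure D1:**
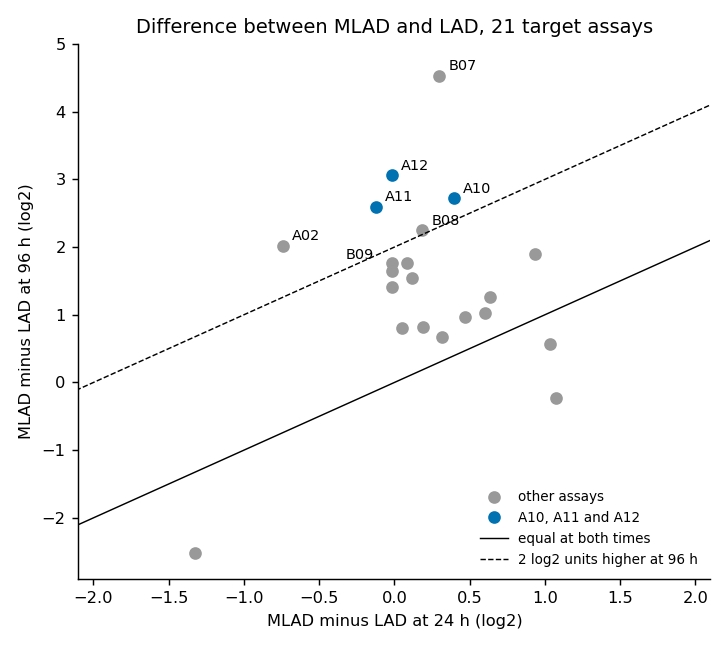
Difference in mean relative expression (log2) between MLAD and LAD mice at 24 h (horizontal axis) and at 96 h (vertical axis), with a point for each of the 21 target assays. A10, A11 and A12 (blue) lie above the dashed line, which marks a difference 2 log2 units higher at 96 h, together with B07, A02 and B08.

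In A10, LAD mice at 96 h stood at -6.36, -6.01, -4.60, -5.14 and -7.86. MLAD mice of that time point stood at -3.10, -3.20, -3.47, -3.05 and -3.53, and sham mice at -4.00, -4.19 and -3.54. Every LAD mouse was below every sham mouse, and every MLAD mouse was above every sham mouse, by 0.0082 log2 units at the closest. Here, as in every bulk sample, fewer cells of a type and less RNA per cell cannot be told apart. With the sham mean of the log2 values set to 1, the relative quantity of A10 was 0.305 ± 0.218 (SD, n = 5) under LAD, whereas MLAD mice had 1.57 ± 0.233 (SD, n = 5). Relative quantities were averaged after conversion from log2, which raises the mean of a widely spread group. At 24 h, LAD mice ran from -5.12 to -3.06 with a median of -3.96, and MLAD mice from -4.17 to -3.15 with a median of -3.69. Sham mice were at -3.74, -3.73, -4.18 and -3.96, within the LAD range and, apart from the lowest, within the MLAD range. At 24 h, LAD mice had a relative quantity of 0.98 ± 0.487 (SD, n = 6), whereas that of MLAD mice was 1.20 ± 0.333 (SD, n = 6).

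In A11, LAD mice at 96 h stood at -0.35, -0.16, -1.60, 1.09 and -0.45. The MLAD mice were at 2.38, 2.16, 2.57, 2.42 and 2.00, and the sham mice at 2.63, 2.12, 1.91, 1.81 and 2.84. MLAD mice lay inside the range of the sham mice, and the LAD mice were below both groups without overlap. LAD mice had a relative quantity of 0.203 ± 0.142 (SD, n = 5), whereas that of MLAD mice was 1.04 ± 0.158 (SD, n = 5). At 24 h the 5 sham mice were at 2.90, 3.00, 3.37, 2.66 and 2.74. LAD mice ran from 2.05 to 3.65 with a median of 2.91, and MLAD mice from 2.24 to 2.99 with a median of 2.86. All 3 groups overlapped at this time point. Relative quantity was 1.05 ± 0.472 (SD, n = 6) under LAD, whereas MLAD mice had 0.89 ± 0.17 (SD, n = 6).

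In A12, LAD mice at 96 h ran from 1.75 to 5.02 with a median of 3.96. MLAD mice stood at 6.06, 7.22, 6.84, 6.30 and 7.09, and sham mice at 8.07, 7.26 and 7.91. The 3 groups were fully ordered here, with LAD lowest and sham highest, although the highest MLAD mouse was 0.0405 log2 units below the lowest sham mouse. LAD mice had a relative quantity of 0.0741 ± 0.0489 (SD, n = 6), whereas that of MLAD mice was 0.508 ± 0.166 (SD, n = 5). At 24 h, sham mice were at 7.98, 7.72 and 7.35, LAD mice ran from 6.39 to 7.77 with a median of 7.10, and MLAD mice from 6.28 to 8.40 with a median of 6.95. The groups overlapped again. Relative quantity was 0.716 ± 0.218 (SD, n = 6) under LAD, whereas MLAD mice had 0.788 ± 0.491 (SD, n = 6). On the log2 scale the MLAD mean was not higher, with MLAD minus LAD at -0.02.

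**Figure D2:**
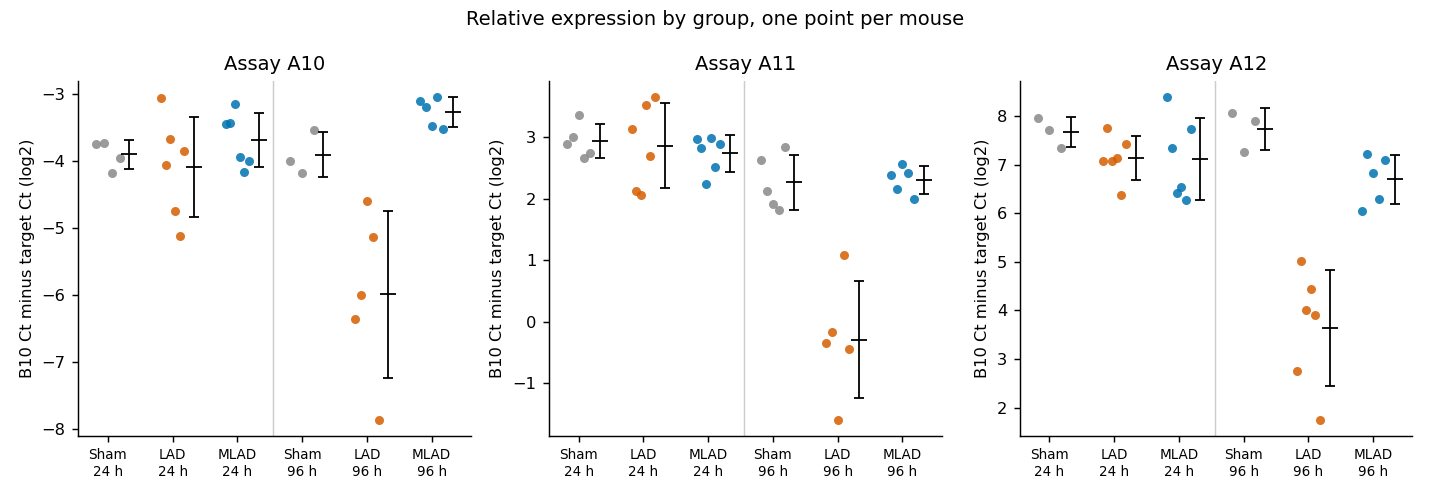
Relative expression (B10 Ct minus target Ct, log2) of A10, A11 and A12, with a point for each mouse and the mean ± SD of each group beside it. In each panel the LAD mice at 96 h (orange, right of the line) lie below the other 5 groups in their mean and are the most widely spread.

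The MLAD and LAD ranges at 96 h were apart in all 3 assays, a separation that 57.1% of the 21 assays had in the same direction and that the rule favours. LAD was wholly below sham at 96 h in all 3, which held for 52.4% of the panel. Since the rule used the LAD mice, nothing was read from these counts and no test was made. MLAD was wholly above sham at 96 h in A10 (23.8% of the panel) and wholly below it in A12 (14.3%). These separations from sham were 0.0082 and 0.0405 log2 units wide with 3 sham mice each, and on raw Ct MLAD and sham overlapped at 96 h in all 3 assays (0.0% of the panel was above and 14.3% below). On raw Ct, MLAD was wholly above LAD at 96 h in A11 and A12 (9.52% of the panel), and LAD wholly below sham in A12 (19.0%). At 24 h LAD was wholly above sham on raw Ct in A11 and A12 (38.1%). At 24 h, on relative expression, 0 of the 3 assays had groups apart. In the panel, MLAD was then wholly above LAD in 14.3%, LAD was above sham in 4.76% and below it in 23.8%, and MLAD was above sham in 9.52% and below it in 9.52%. As a share of the distance between the LAD and sham means at 96 h, the MLAD mean stood at 131% in A10, at 102% in A11 and at 74.6% in A12.

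The working description of these assays as a late rise with Myriocin was checked against the levels of each group over time, again with no test. MLAD mice at 96 h differed from MLAD mice at 24 h by 0.42 log2 units in A10, -0.43 in A11 and -0.42 in A12. LAD mice differed by -1.91, -3.16 and -3.50 in the same order. On this scale the larger part of the change in the Myriocin difference thus lay in lower LAD values at 96 h, and the LAD ranges of the 2 times were apart in A11 and A12 (33.3% of the panel). On raw Ct, the differences of MLAD were positive, at 1.82 in A10, 0.97 in A11 and 0.54 in A12, and those of LAD were -0.95, -2.69 and -3.66. The larger part of A10 then lay in the MLAD mice, and that of A11 and A12 still in the LAD mice. With a reference averaged over those of the 21 target assays that had a Ct, LAD in A10 was higher at 96 h than at 24 h, by 0.50 log2 units. Empty assays shift this reference as well, and how far was not tested. A common direction for the 3 assays can therefore not be stated without naming the scale.

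Mean reference Ct in sham mice was lower at 96 h than at 24 h, which was not tested. This did not hold in every group, since B10 listed with A12 in LAD mice had means of 24.7 at 24 h and 24.9 at 96 h. B10 Ct listed with the 3 assays had means of 26.4, 26.7 and 26.4 in sham mice at 24 h, and of 24.6, 24.8 and 24.6 at 96 h, for A10, A11 and A12. At 96 h the LAD and MLAD means of B10 were close, at 24.6 and 24.7 for A10, 25.0 and 25.1 for A11, and 24.9 and 24.8 for A12, so that the MLAD minus LAD difference at 96 h was 2.65, 2.50 and 3.12 on raw Ct beside 2.72, 2.60 and 3.06 with the reference. Across the panel the median of this difference was 1.67 and 1.54. At 24 h the B10 means of LAD and MLAD mice were 25.6 and 26.1, 25.5 and 26.5, and 24.7 and 25.8. There the MLAD minus LAD difference was 0.40, -0.12 and -0.02 with the reference and -0.12, -1.16 and -1.08 without it, beside panel medians of 0.19 and -0.71. In A10 this difference changed its sign between the scales. LAD minus sham at 24 h changed its sign in all 3 assays, from -0.18, -0.07 and -0.54 with the reference to 0.59, 1.11 and 1.07 on raw Ct. Whether the B10 readings followed the input of RNA or the transcript itself was not tested.

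**Figure D3:**
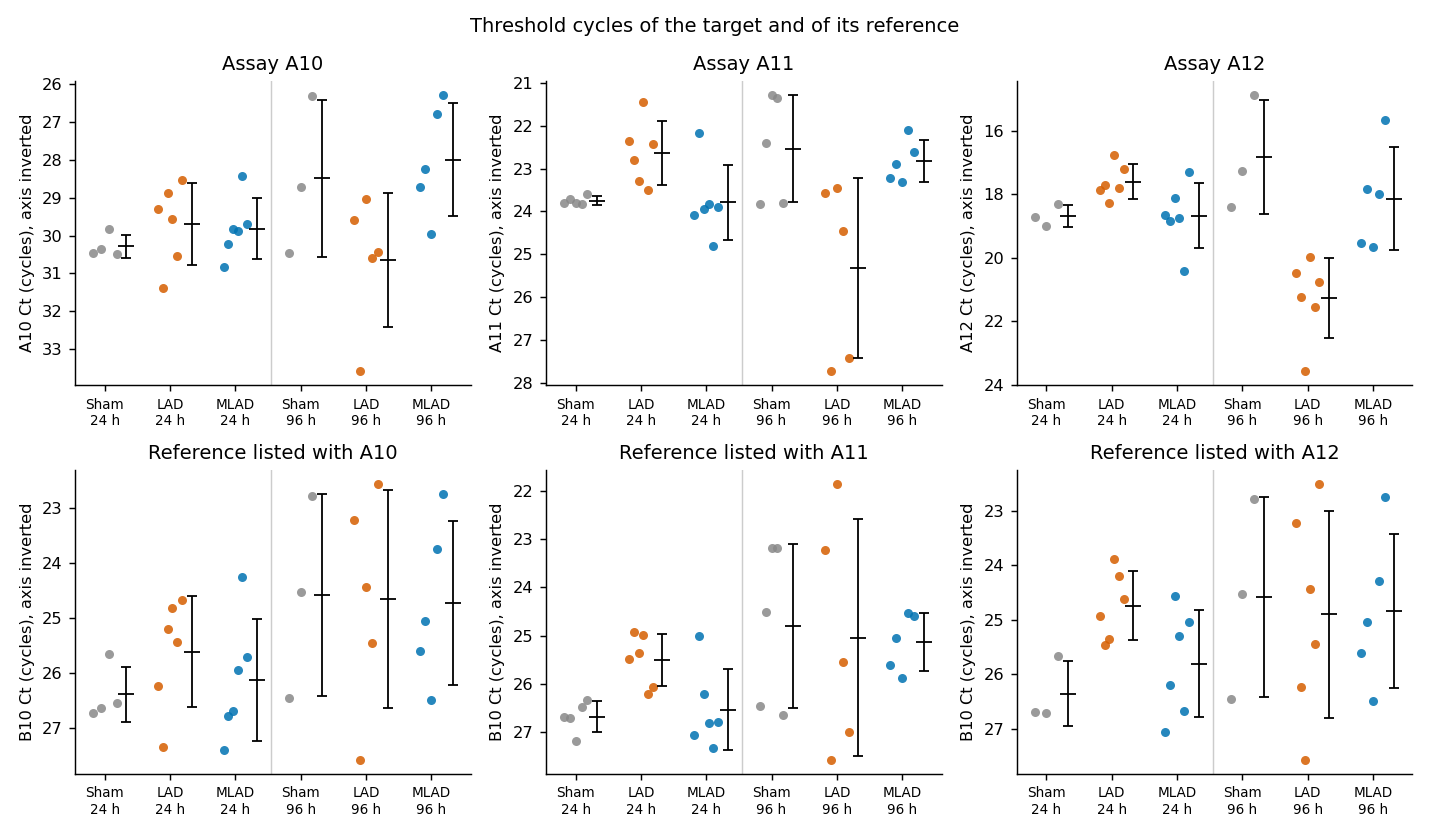
Threshold cycles of A10, A11 and A12 (upper row) and of the B10 reference listed with each (lower row), in cycles on an inverted axis so that more transcript is higher, with a point for each mouse and the mean ± SD of each group. LAD mice at 96 h have the lowest mean transcript in each upper panel, while in the lower panels the B10 readings of the 3 groups at 96 h overlap and spread over up to 5.72 cycles.

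In the order of group means, LAD at 96 h was the lowest of the 6 groups in A10, A11 and A12. In A10, MLAD at 96 h came first, followed by MLAD and sham at 24 h, sham at 96 h and LAD at 24 h, and the ranges of every neighbouring pair in this order overlapped. In A11, sham, LAD and MLAD at 24 h came before MLAD and sham at 96 h, and sham at 96 h and LAD at 96 h were the neighbours whose ranges did not overlap. In A12, the sham groups led, LAD and MLAD at 24 h and MLAD at 96 h followed, and a gap of 3.06 log2 units without overlap separated MLAD from LAD at 96 h.

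Sham mice did not enter the choice of the assays, so their time points could be compared with a test. Relative expression of sham mice at 96 h minus that at 24 h was -0.0048 log2 units in A10 (95% interval -1.01 to 1.00, limma, adjusted p = 0.992), -0.67 in A11 (-1.37 to 0.04, limma, adjusted p = 0.278) and 0.06 in A12 (-1.13 to 1.26, limma, adjusted p = 0.992). A difference was not detectable in this fit with 3 to 5 mice per group, and the intervals leave room for more than 1 log2 unit in each assay. Their spread was pooled over all 6 groups, among them the widely spread LAD mice at 96 h, whose values helped to choose the assays. With the sham groups alone in the fit, A11 had an adjusted p of 0.0516 (limma), beside 0.984 in A10 and 0.981 in A12. Over the 21 assays limma called 0 (0.0%), with 3 at an unadjusted p under 0.05, and the exact permutation test called 0, with 3 unadjusted, A11 among them (exact permutation test, p = 0.0317). With so few sham mice the exact test cannot go below p = 0.0571 in A10 and 0.1 in A12, and it could not have called them. On raw Ct the sham difference was 1.80, 1.21 and 1.83 in A10, A11 and A12, in the direction of more transcript at 96 h, and none of the 3 passed after adjustment (limma, adjusted p = 0.35 in each).

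All occluded mice, LAD and MLAD together, were then set against sham mice at each time, with the groups weighed by their number of mice. The error of such a mean is uncorrelated with the MLAD minus LAD difference, which chose the assays, if both groups spread alike. At 96 h they did not, with an SD of 1.25 in LAD and 0.219 in MLAD mice for A10, 0.956 and 0.225 for A11, and 1.20 and 0.504 for A12. Low LAD values enter both the choice and the occluded mean, and limma's p-values for these differences are therefore not used for the 3 assays. The values below are a description, with no test, and at 96 h they average groups that stood apart. Their SE come from limma, with a spread pooled over all groups, and are not to be read as a test either.

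At 24 h the mean of occluded mice differed from that of sham mice by 0.01 log2 units in A10 (SE 0.373), -0.13 in A11 (SE 0.291) and -0.55 in A12 (SE 0.463). At 96 h, A12 stood at 5.04 ± 1.83 (SD, n = 11) in occluded and 7.75 ± 0.43 (SD, n = 3) in sham mice, a difference of -2.71 (SE 0.467). In A11 occluded mice stood at 1.01 ± 1.52 (SD, n = 10) and sham mice at 2.26 ± 0.453 (SD, n = 5), a difference of -1.26 (SE 0.3). In A10 the difference was -0.73 (SE 0.425). The median over the 3 assays was -1.26, beside -0.39 over all 21. Limma called 19.0% of the panel at 24 h and 66.7% at 96 h, with 14.3% and 42.9% called lower. The size at 96 h depended on the reference. It was -3.00 in A12, -1.54 in A11 and -0.83 in A10 on raw Ct, and -1.74, -0.52 and 0.30 with a reference averaged over the target assays.

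The difference of occluded from sham mice at 96 h less that at 24 h was -2.16 log2 units in A12 (SE 0.658), -1.13 in A11 (SE 0.418) and -0.74 in A10 (SE 0.565). The median of the panel was -0.35, and limma called 23.8% of it, 19.0% in the lower direction.

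**Figure D4:**
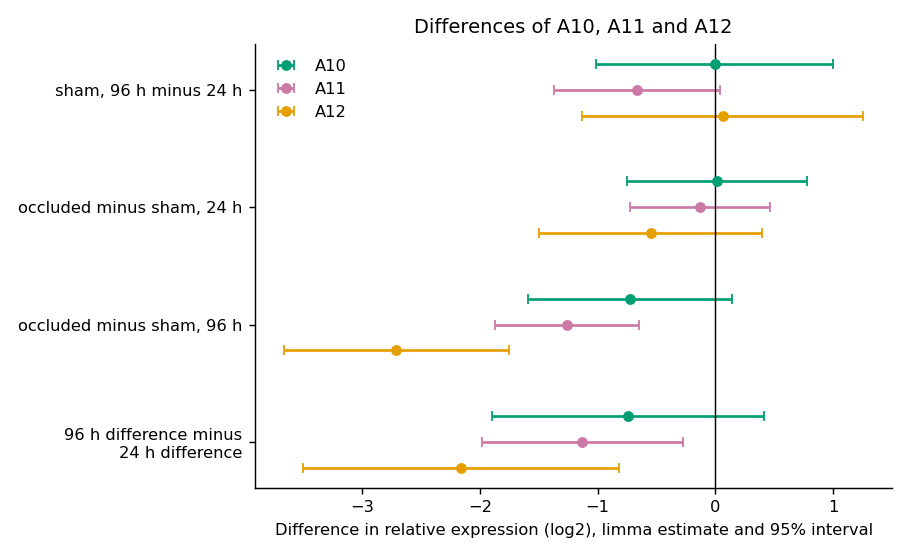
Limma estimates with 95% intervals of 4 differences in relative expression (log2) for A10, A11 and A12. The sham comparison over time (top) is the one tested, and its intervals include 0 in all 3 assays. The other rows hold LAD and MLAD mice, whose values chose the assays, and are a description. Their intervals rest on a spread pooled over the groups and are not a test, whether or not they include 0.

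Listings of 2 assays that share a reference reading within a group are taken here to come from the same mouse. The difference of their target Ct then does not depend on the reference. This assumption is not certain, since for A10 and A12 at 96 h, 3 of 4 LAD listings and 1 of 4 MLAD listings had different sample numbers. Ct of A10 minus Ct of A12 was 12.1, 11.4 and 11.5 cycles in 3 sham listings at 96 h. It was 9.10, 10.0, 9.06 and 9.05 in 4 LAD listings and 9.16, 10.4, 10.3 and 10.6 in 4 MLAD listings of the same time. Both occluded groups were below the sham listings. On that assumption, transcript of A12 was lower relative to A10 with LAD and with MLAD than in sham mice. At 24 h, 1 sham listing had 11.5 and 1 MLAD listing 9.43.

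Ct of A11 minus Ct of A12 was 5.44 and 5.14 in sham, 3.09 and 4.17 in LAD and 3.68 and 5.06 in MLAD listings at 96 h. At 24 h it was 5.08 and 4.72 in sham, 4.96 and 5.02 in LAD and 5.43 and 5.11 in MLAD listings. On the same assumption, A12 was lower relative to A11 in both LAD listings at 96 h than in any of the 6 at 24 h. This also held in 1 of the MLAD listings at 96 h. Ct of A10 minus Ct of A11 was 6.63 and 6.31 in sham, 6.01 and 5.85 in LAD and 5.48 and 5.36 in MLAD listings at 96 h. With 2 to 4 listings in a group, these values are given as a description.

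**Figure D5:**
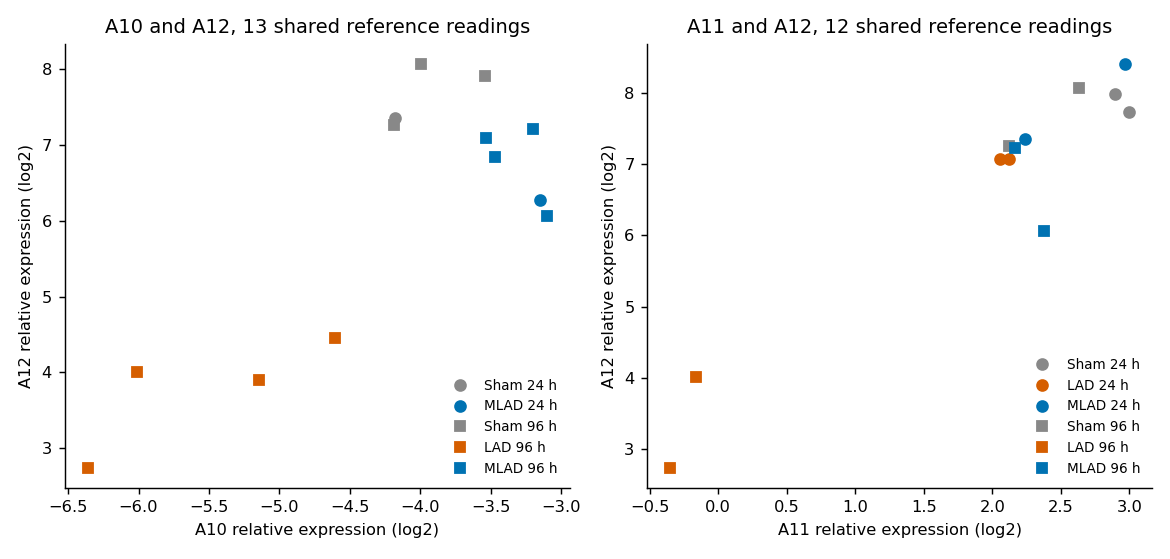
Relative expression (log2) of A12 against A10 in 13 shared reference readings (left) and against A11 in 12 (right), with circles for 24 h and squares for 96 h. The LAD readings at 96 h (orange squares) are low in both assays of each panel and stand apart from all others.

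Among the other 18 assays, those whose 6 group means were most like A10 by Pearson's correlation were B06 (r = 0.923) and B07 (r = 0.871). For A11 they were B06 (r = 0.977) and B07 (r = 0.974), and for A12 B09 (r = 0.993) and B08 (r = 0.944). On raw Ct the likeness to B07 was 0.416 for A10 and 0.761 for A11. Among themselves, the members had correlations of 0.892 for A10 with A11, 0.873 for A10 with A12 and 0.951 for A11 with A12. These correlations are over 6 group means that share mice and reference readings, and the members were chosen for a like pattern.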

How the data were processed

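The authors reverse transcribed 1 μg of total RNA, ran SYBR green PCR for 40 cycles and deposited the Ct values as read, not normalised. Another deposited table, of the authors' own ratios (fold changes) against sham, was not used. Groups and replicate numbers came from the sample titles, and each table column was matched to its sample through the number in its description. The members and comparisons were chosen with earlier results of these data known. The other assays named are those above or next to the threshold of the rule and, for each member, the 2 with the highest correlation of group means.

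Relative expression was B10 Ct minus target Ct. All 21 target assays and 38 mice entered a limma fit of 6 group means with eBayes, and p-values were Benjamini-Hochberg adjusted over the 21 assays, with calls at 0.05. An empty Ct left the mouse out of that assay. Permutation tests were two-sided and exact. Comparisons of occluded with sham mice were fitted likewise, but hold the mice whose values chose the assays, so no p-value or call of the 3 assays is given for them. The fit was tried on simulated data in which all 6 groups of an assay spread alike. This does not cover the unequal spread of LAD and MLAD mice at 96 h. Replicate numbers of LAD and MLAD mice at 24 h deviated together across assays in all 7 pairs (r from 0.149 to 0.654). Those of sham mice at the 2 times did not, with r from -0.945 to -0.0599. In the other comparisons of groups, r was over 0.1 in 1 to 3 pairs. Alternatives were a reference from all target assays or all B10 readings of a sample number (their mean Ct), no reference at all (raw Ct), a replicate block, Ct above 35 left out, exact permutation tests, unadjusted p-values and each mouse left out. Equal weights for LAD and MLAD, fits of the compared groups alone, and the comparison of LAD and of MLAD between the times were added after the values were seen. R 4.3.3, limma 3.58.1, Python 3.11.15, NumPy 2.4.6, pandas 2.3.3, SciPy 1.17.1 and matplotlib 3.10.9 were used.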

Additional observations from a re-analysis of the deposited data

Results flagged for a closer look

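The difference between occluded and sham mice at 96 h less that at 24 h was -0.74 log2 units in A10, -1.13 in A11 and -2.16 in A12. The LAD and MLAD mice in it are those whose values chose the assays, so these values are a description and not an independent test. In 15 groups of 4 to 6 mice, 0 mice stood apart from their group by Dixon's criterion.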

How the results depend on the processing

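Values are log2 differences. Where a result changed, the cause was not tested. Both references that average over assays do so by sample number, and whether a number marks the same mouse in every assay is not known. Values of occluded against sham mice are a description with no call, since the assays were chosen on the same LAD and MLAD mice. The mean Ct of all target assays also subtracts a change common to the panel by construction. It averages only the assays with a Ct under a sample number, so it also moves with which assays are empty. Leaving out Ct above 35, equal weights for LAD and MLAD, fits of the compared groups alone and unadjusted p-values moved no value by more than the SD between mice. They changed no call of the sham comparison.

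For occluded against sham mice at 96 h, A11 moved from -1.26 to -1.54 on raw Ct, -0.52 with the target mean and -0.81 with the B10 mean. A12 was at -3.00, -1.74 and -2.38 in the same order. The change of this difference over time was -2.08, -0.058 and -0.58 in A11, and -3.53, -1.71 and -1.99 in A12. With a mouse left out, this change ranged from -1.30 to -0.84 in A11 and from -2.41 to -1.83 in A12.

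Blocking on the replicate number, occluded against sham at 96 h was -0.97 in A10, and its change over time was -1.04 in A11. MLAD minus sham at 96 h in A10 moved to 0.32. Equally numbered mice deviated together in all 7 pairs of LAD and MLAD at 24 h. For sham mice at the 2 times r was over 0.1 in 0 of 5 pairs, and for the other groups compared in 1 to 3 pairs.

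The remaining values were not tested. With the target mean, MLAD minus LAD at 96 h moved to 1.40 in A10, 1.34 in A11 and 1.80 in A12, beside a panel median of 0.67. Its change over time moved to 0.77 in A10, the panel median, and to 1.91 in A11. LAD minus sham at 96 h moved to -0.40, -1.19 and -2.56. MLAD minus sham moved to 1.00 in A10 at 96 h and to -0.75 in A11 at 24 h, and LAD minus sham at 24 h in A12 turned to 0.28. LAD at 96 h minus 24 h turned to 0.50 in A10 and moved to -1.01 in A11 and -2.08 in A12. MLAD at 96 h minus 24 h moved to 1.27 in A10 and turned to 0.90 in A11 and 0.34 in A12.

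With the B10 mean, MLAD minus sham at 96 h moved to 1.12 in A10 and 0.49 in A11, LAD at 96 h minus 24 h to -0.54 and -2.31, and MLAD at 96 h minus 24 h to 1.36 in A10 and, turning, to 0.68 in A11.

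On raw Ct, LAD minus sham at 24 h turned to 0.59, 1.11 and 1.07 in A10, A11 and A12. MLAD minus LAD at 24 h moved to -1.16 in A11 and -1.08 in A12, and its change over time to 3.66 and 4.20. MLAD at 96 h minus 24 h moved to 1.82 in A10 and turned to 0.97 in A11 and 0.54 in A12.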
